A study of Mus musculus with 10 samples.

Results

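The genes Aqp4, Gfap, S100b, Slc1a3, Fabp7, Mbp, Sox10 and Olig2, all widely used as markers of glial cells, were followed in differentiating mouse embryonic stem cells. They are 8 of the 18193 genes with a named probe set on the array, and 27 of its 34945 probe sets that carry exactly 1 gene symbol. The genes were chosen by name with earlier readings of these same arrays known, so that their levels are described as such. Where a gene had several probe sets, the one with the highest mean over the arrays was taken as its main probe set, and the others are given beside it. The study grew embryonic stem cells of the C57BL/6 strain for 8, 17 or 24 days of differentiation, with keratinocyte growth factor (KGF, an epithelial mitogen), with DCI, with both, or as controls with neither. The sample labels do not spell out DCI, which is read here from the title of the series as dexamethasone together with agents that elevate cAMP. Day 8 had 2 arrays (KGF and control), and days 17 and 24 had 4 arrays each (KGF and DCI, DCI, KGF, and control), with 1 array for each of the 10 conditions. The study asked whether the treatments together favour the alveolar type II fate, that of the lung's surfactant makers. Every array read a whole culture, so that fewer cells of a kind and less RNA per cell cannot be told apart in any value below. No promoter, sort or gate restricts which cells were read.

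Glia are the non-neuronal cells of the nervous system. Astrocytes regulate water, ions and glutamate around neurons, oligodendrocytes and Schwann cells wrap axons in myelin, and radial glia are the progenitors from which neurons and many glia arise. None of the 8 genes is made by glia alone. Aqp4, the water channel of astrocyte end feet, is also found in airway epithelium, in the acid-secreting parietal cells of the stomach and at the surface of fast skeletal muscle fibres.

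The glial name was checked against other markers. Values are log2 expression values, on which a difference of 1 is a 2-fold change, and the 39 olfactory receptor genes on the array served as a gauge of genes near background. The 95th percentile of their values was 4.72, and that of their ranges over the 10 arrays was 0.94. Of 16 other astrocyte genes, 3 never read above 4.72 and 7 had ranges under 0.94. Hepacam, Mlc1 and Slco1c1 stayed between 2.82 and 3.71 on every array. Of 17 measured genes of the oligodendrocyte lineage, 7 never read above 4.72 and 10 had ranges under 0.94, and Mog, the myelin oligodendrocyte glycoprotein, read 2.05 to 2.62. Of 12 measured Schwann cell and neural crest genes, 2 never did, Cdh19 at 2.56 to 3.12 and Foxd3 at 3.26 to 3.90. The genes named in this check were chosen after their values were seen. Of 15 radial glia and neural progenitor genes only 1 never read above 4.72 and 5 had ranges under 0.94, and the list's mean was 6.74 to 7.23. Over all genes 58.9% had ranges under 0.89 and 63.1% under 0.97, so narrow ranges did not set these lists apart. The share of all genes that never read above 4.72 was not counted. Most genes of the astrocyte, oligodendrocyte, Schwann cell and radial glia lists thus read above 4.72 on at least 1 array. Many of these genes are also expressed outside the nervous system. The low-reading genes named here did not read above 4.72, and they do not stand for their lists. Whether glia were present was not tested, and the 8 genes are called by their symbols below.

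One array, the control of day 8, differed most from the other 9 in its control probe sets. Its 3′ minus 5′ log2 difference for Actb was 1.05, where the others ranged between 0.46 and 0.62. For the dap spike-in it was 5.34, where the others ranged between 1.49 and 2.998. At day 17 the dap difference was higher on both arrays with DCI, at 2.95 with KGF and 2.998 without KGF. It was 1.99 with KGF alone and 2.004 in the control of that day. At day 24 it was 1.58 and 1.49 with DCI, and 1.64 and 1.74 without DCI. Whether this split bears on the DCI differences of day 17 was not tested. Without the day 8 control the calls of all 8 genes between days 8 and 17, and between days 17 and 24, were the same.

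The promoters of 3 of the genes are shown because these genes passed the test with DCI or between days: Slc1a3 and S100b read higher with DCI, and Fabp7 was higher at day 17 than at day 8. Each RefSeq sequence runs 5′ to 3′ on the gene's own strand of assembly GRCm38.p6, from 250 bases before the annotated start to 50 after it. The Slc1a3 window is chr15:8710758-8711057 on the minus strand, the S100b window chr10:76253586-76253885 on the plus strand and the Fabp7 window chr10:57784673-57784972 on the plus strand. Capitals mark a half-site of the cAMP response element, TGACG, or of the glucocorticoid response element, AGAACA, on either strand, the elements through which raised cAMP and dexamethasone are known to act.
Slc1a3: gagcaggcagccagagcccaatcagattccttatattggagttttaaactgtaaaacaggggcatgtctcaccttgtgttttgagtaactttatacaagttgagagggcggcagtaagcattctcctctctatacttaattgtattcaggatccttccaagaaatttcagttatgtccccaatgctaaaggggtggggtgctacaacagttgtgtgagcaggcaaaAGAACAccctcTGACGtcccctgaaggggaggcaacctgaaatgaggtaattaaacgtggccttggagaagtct
S100b: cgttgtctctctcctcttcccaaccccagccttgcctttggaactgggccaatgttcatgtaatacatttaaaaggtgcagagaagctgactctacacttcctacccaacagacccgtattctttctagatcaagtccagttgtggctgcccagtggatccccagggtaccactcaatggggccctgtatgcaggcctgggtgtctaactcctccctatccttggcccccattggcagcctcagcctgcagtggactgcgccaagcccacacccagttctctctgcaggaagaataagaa
Fabp7: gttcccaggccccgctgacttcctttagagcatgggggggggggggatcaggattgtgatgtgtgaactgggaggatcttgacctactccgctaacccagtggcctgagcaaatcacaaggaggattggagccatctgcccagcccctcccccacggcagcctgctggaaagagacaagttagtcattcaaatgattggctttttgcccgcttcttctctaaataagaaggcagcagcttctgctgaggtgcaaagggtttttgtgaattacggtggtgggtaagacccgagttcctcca
The Slc1a3 window held 1 of each half-site, AGAACA beginning 24 bases and TGACG beginning 13 bases before the start. The S100b and Fabp7 windows held neither, and nor did those of Gfap and Olig2. Among 32851 promoters of the same length, 20.8% held TGACG and 19.0% held AGAACA on either strand. The full cAMP response element TGACGTCA, which contains its half-site, was in 1.79% of promoters, and the full glucocorticoid response element, an inverted repeat of its half-site, in 0.00913%. Neither was in any of the 5 windows searched. The windows of Aqp4 and Mbp, which also passed tests, and of Sox10 were not analysed here. A match of letters is not a bound site, and the arrays did not measure binding.

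Differences were fitted with day, KGF and DCI together in limma on all 10 arrays, and a gene passed at a Benjamini-Hochberg adjusted p under 0.05 over all 18193 genes. With 1 array per condition, these p-values measure only how far single arrays scatter around an additive model. At day 17 against day 8, 4 of the 8 passed, where 42.4% of all genes did: Aqp4, Fabp7 and Mbp were higher (21.4% of all genes) and Slc1a3 was lower (21% of all genes). The median of the 8 differences was 0.08, against -0.02 over all genes. At day 24 against day 17, 3 passed, where 37.3% of all genes did: Aqp4 and S100b were higher (14.8% of all genes) and Fabp7 was lower (22.5% of all genes), with a median of 0.04 against -0.01.

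With DCI in the same fit 2 of the 8 passed, S100b and Slc1a3, both higher, where 15.4% of all genes passed, 7.27% higher and 8.09% lower. The median was 0.06, against -0.01 over all genes. Fits on the 8 arrays of days 17 and 24 gave DCI differences for each day. At day 24, 3 passed, Slc1a3 as higher and Fabp7 and Mbp as lower, where 19.4% of all genes passed, 7.99% higher and 11.4% lower. At day 17 none of the 8 passed, where 9.64% of all genes did, 5.63% higher and 4.01% lower, and 1 of the 8 had an unadjusted p under 0.05, as did 21.4% of all genes. The change of the DCI difference between the days passed for none of the 8 and for 2.51% of all genes, 0.533% higher and 1.97% lower. At an unadjusted p under 0.05 that change held Aqp4, Fabp7 and Mbp, and 16.0% of all genes.

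KGF passed for none of the 8 and for 0.0055% of all genes, all of it higher, and 2 of the 8, Aqp4 and Slc1a3, had an unadjusted p under 0.05, as did 8.06% of all genes. By day, none of the 8 passed for KGF at day 17, where 0.143% of all genes did, 0.126% higher and 0.0165% lower, or at day 24, where 0.011% did, all of them higher (0.011%). In limma the interactions of KGF with DCI and of KGF with day passed for 0 of 18193 genes, at smallest adjusted p-values of 1.00 and 0.513. At an unadjusted p under 0.05 they held 267 and 932 genes, and 0 of the 8. In simulated data a change of 1 was recovered for only 4% and 8% of changed genes. Counts of 0 therefore cannot show that no gene had such an interaction. These contrasts share their arrays and are not independent of each other.

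**Figure D1:**
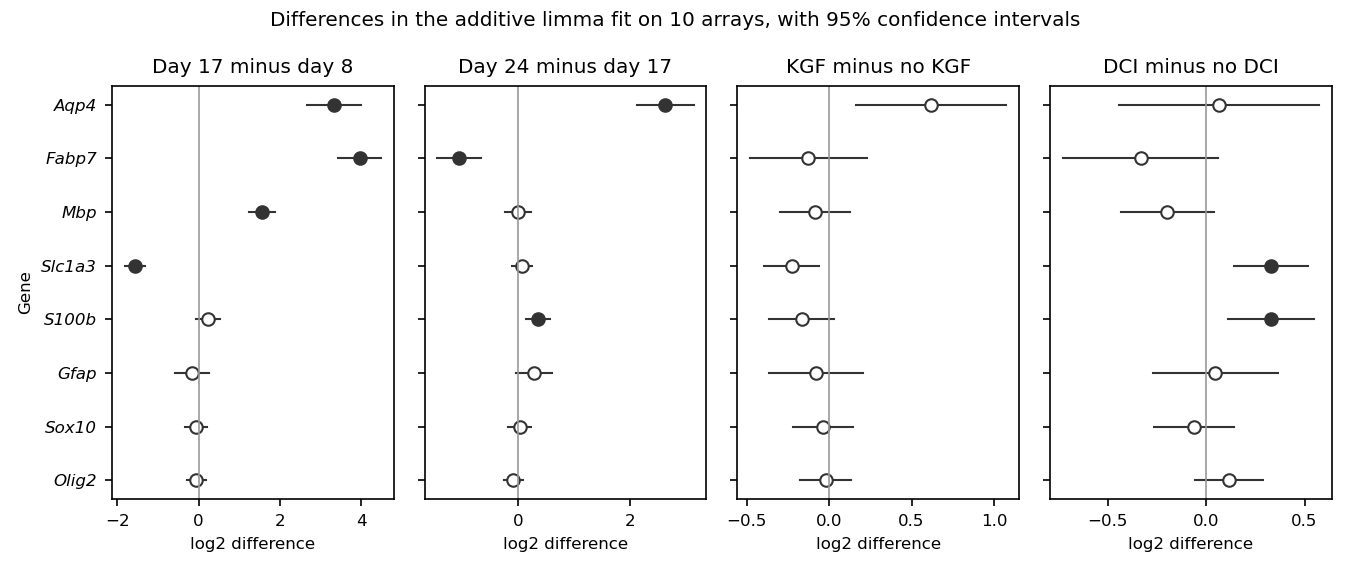
Log2 differences of the 8 genes for 2 steps in time and for KGF and DCI, as points with 95% confidence intervals from the additive limma fit on 10 arrays, with filled points at an adjusted p under 0.05. Filled points are Aqp4, Fabp7, Mbp and Slc1a3 for day 17 minus day 8, Aqp4, Fabp7 and S100b for day 24 minus day 17, and Slc1a3 and S100b for DCI.

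Aqp4 made the widest movement of the 8 genes. On its main probe set it read 2.52 with KGF and 2.84 in the control at day 8. By day 17 it read 6.91 with KGF and DCI, 5.59 with DCI, 6.10 with KGF and 5.58 in the control. At day 24 the values were 8.95 with KGF and DCI, 8.12 with DCI, 9.20 with KGF and 8.45 in the control. The 3 days did not overlap. Among all genes 26.5% read higher on every day 17 array than on both day 8 arrays, and 11% higher on every day 24 array than on every day 17 array. The range of 6.68 was wider than that of 99.7% of genes. At day 8 Aqp4 lay among the olfactory receptors, and at its highest it read above 90.8% of all probe sets on the array.

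**Figure D2:**
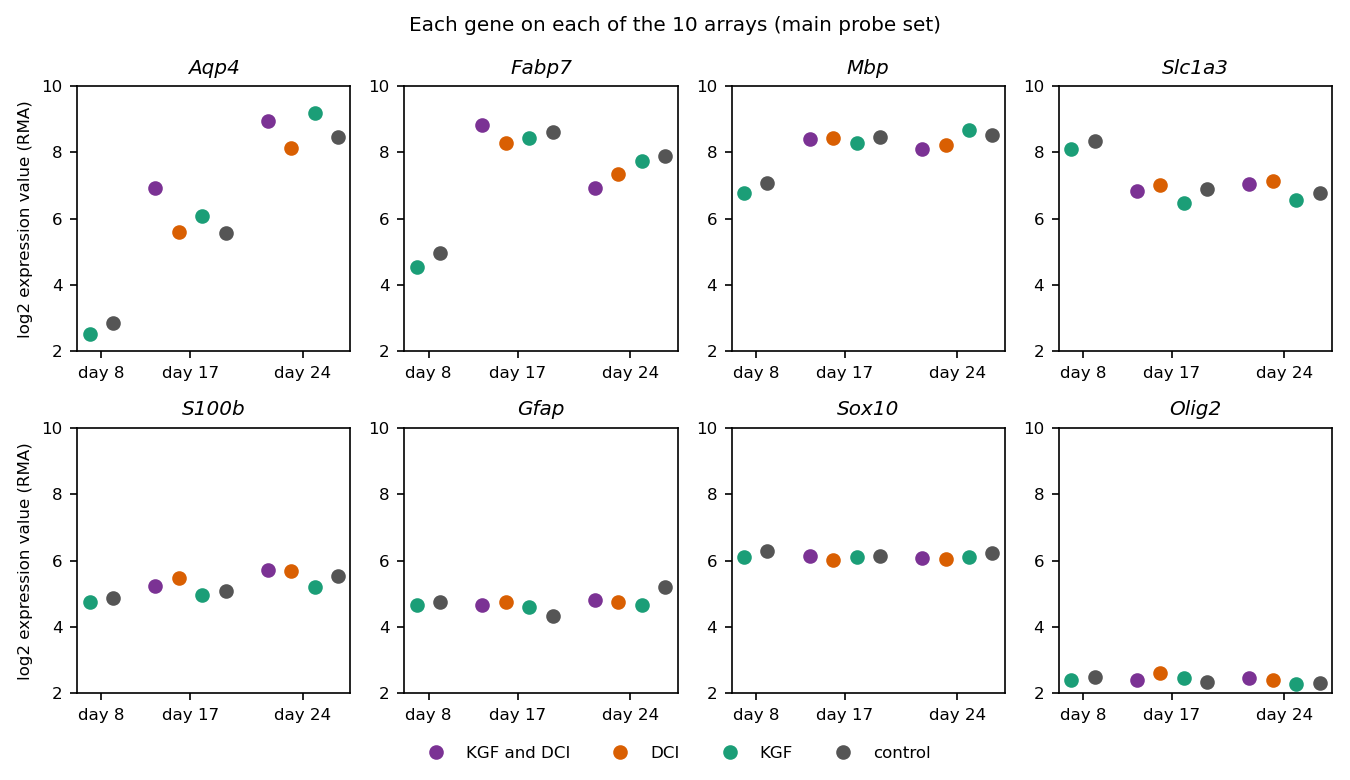
Log2 expression value of each gene's main probe set on each of the 10 arrays, 1 point per array, arranged by day of differentiation and coloured by treatment. Aqp4 climbed on both steps to 9.20, Fabp7 and Mbp climbed between days 8 and 17, Slc1a3 fell, and Sox10 and Olig2 ranged by no more than 0.31.

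In the additive limma fit Aqp4 was higher at day 17 than at day 8 by 3.33 ± 0.30 (SE), or 10.1-fold (adjusted p = 7.82e-06), in 2 of 2 matched pairs of arrays. Since its day 8 values lay among the olfactory receptors, the difference on this probe set may be a lower bound, and no exact fold can be given. It was higher again at day 24 than at day 17 by 2.64 ± 0.23, or 6.22-fold (adjusted p = 1.46e-05), in 4 of 4 pairs. The first step depended on the probe set. The other Aqp4 probe sets read 3.10 to 3.17 and 3.25 to 3.32 at day 8. One of them reached 6.85 to 7.89 at day 24 and the other 4.04 to 5.08. Their differences between days 17 and 8 were 1.35, which passed, and 0.36, which did not (adjusted p = 0.201), and the mean of the 3 probe sets gave 1.68. Between days 24 and 17 all 3 were higher and passed, by 1.05 to 2.85.

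In the order of its levels, neighbouring conditions of Aqp4 were closer than the residual standard deviation of the model, 0.44, in 4 of 9 places: the 2 arrays of day 8, the control and DCI at day 17, DCI and the control at day 24, and KGF and DCI and KGF alone at day 24. The other 5 gaps were larger.

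KGF went with higher Aqp4 on the later days, but the difference did not pass the test. In the pairs of arrays that differ only in KGF, Aqp4 was higher with KGF by 1.32 and 0.52 at day 17, with and without DCI, and by 0.83 and 0.75 at day 24. At day 8 it was lower with KGF by 0.32, at values near background. Both KGF arrays were above both others at day 17, as for 15.4% of genes, and at day 24, as for 14.7%. A higher reading with KGF in all 4 pairs of these days was shared by 10.8% of genes. In the 10-array fit the KGF difference was 0.62 ± 0.21, or 1.54-fold (95% interval 0.16 to 1.08, adjusted p = 0.450), and on the 8 arrays of days 17 and 24 it was 0.85 ± 0.17 (adjusted p = 0.0995). All 3 Aqp4 probe sets were higher with KGF, by 0.45 to 0.85, and none passed.

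DCI differences of Aqp4 pointed in opposite directions on the 2 days. At day 24 they were -0.25 in cultures with KGF and -0.33 in cultures without it, and at day 17 they were 0.81 and 0.02. Only the day 17 difference with KGF was larger than the residual standard deviation of the additive fit, 0.44. The additive DCI difference was 0.06 ± 0.23 (95% interval -0.44 to 0.57, adjusted p = 0.901), and the DCI by day term, the DCI difference at day 24 minus that at day 17, was -0.70 ± 0.23 (adjusted p = 0.166). No interaction of KGF with DCI was detected for Aqp4 either, at 0.44 ± 0.32 (adjusted p = 1.00). The culture with both treatments read 1.34 above the control at day 17, a 2.52-fold difference between single arrays that has no test, and 0.50 above it at day 24. At day 17, 1.76% of genes read 2-fold or more higher with both treatments and 1.17% lower, and of the 8 Aqp4 alone did, as higher. At day 24, where 2.2% of genes were 2-fold or more higher and 2.56% lower, none of the 8 reached 2-fold, and Fabp7 was nearest at 1.97-fold lower.

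Aqp4 was set beside the other aquaporins, the water and glycerol channels of its family. The median difference of the 12 family members measured between days 17 and 8 was 0.02, against -0.02 over all genes. Of the 12, 4 were higher and 1 lower at day 17, where 21.4% and 21% of all genes were. Besides Aqp4 itself these were Aqp1 of endothelium and red cells (2.91 ± 0.18), Aqp3 of basal epithelial membranes (2.26 ± 0.16), and Aqp5 of alveolar type I and gland cells (2.05 ± 0.35), all past the threshold. Between days 17 and 24, 4 were higher, Aqp4, Aqp5 (1.83 ± 0.26), Aqp8 (1.14 ± 0.28) and Aqp11 (0.55 ± 0.15), and none lower. Over all genes 14.8% were higher and 22.5% lower. With DCI, 3 of the 12 were higher, Aqp5 (1.57 ± 0.26, adjusted p = 0.00253), Aqp8 (1.33 ± 0.28, adjusted p = 0.00917) and Aqp3 (0.52 ± 0.12, adjusted p = 0.0133), and Aqp4 was not among them. Over all genes 7.27% were higher with DCI and 8.09% lower. Of 8 measured genes whose proteins anchor Aqp4 at the astrocyte membrane, Dag1 (0.38 ± 0.07) and Dmd (0.46 ± 0.15) of the dystroglycan complex were higher and Utrn was lower (-0.88 ± 0.10) at day 17 than at day 8, and none passed between days 17 and 24.

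Markers of the other cell types named above for Aqp4, and those of alveolar type I cells, which were not named there, moved over the same days. The mean of 13 fast skeletal muscle genes was 4.77 to 4.88 at day 8, 6.33 to 7.48 at day 17 and 7.65 to 8.14 at day 24. Of the 13, 11 were higher at day 17 than at day 8, and 10 were higher and 1 lower at day 24 than at day 17. The mean of 10 airway epithelial genes was 4.54 to 4.61 at day 8, 5.90 to 7.72 at day 17 and 6.50 to 8.54 at day 24, with 5 of 10 higher and none lower on each step. Of 10 alveolar type I genes, a list that includes Aqp5, 7 were higher and 1 lower on the first step and 5 were higher and 2 lower on the second. Over all genes 21.4% were higher and 21% lower on the first step, and 14.8% and 22.5% on the second. The mean of the airway list was higher with KGF than without in all 4 pairs of days 17 and 24, as for Aqp4. The means of the fast skeletal muscle, alveolar type I and astrocyte lists were too. So were those of the radial glia, cartilage, Aqp4 anchoring and aquaporin lists, the last of which holds Aqp4. Those of the gastric parietal list and the remaining lists were not. Some differences were slight, as for the astrocyte mean at day 24 without DCI, 6.52 with KGF and 6.51 in the control. In the additive fit all 10 KGF differences of the airway list were above 0 and none passed. By day, Bpifa1, a secreted airway defence protein, passed as higher with KGF at day 17 (3.41, adjusted p = 0.0157) and at day 24 (3.95, adjusted p = 0.0217), and Krt5 was at -0.04 at day 24. The mean of 6 gastric parietal genes ran between 4.07 and 5.40 over all arrays, and the mean of 16 astrocyte genes between 6.14 and 6.75. The part of any of these cells in the Aqp4 values was not tested.

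**Figure D3:**
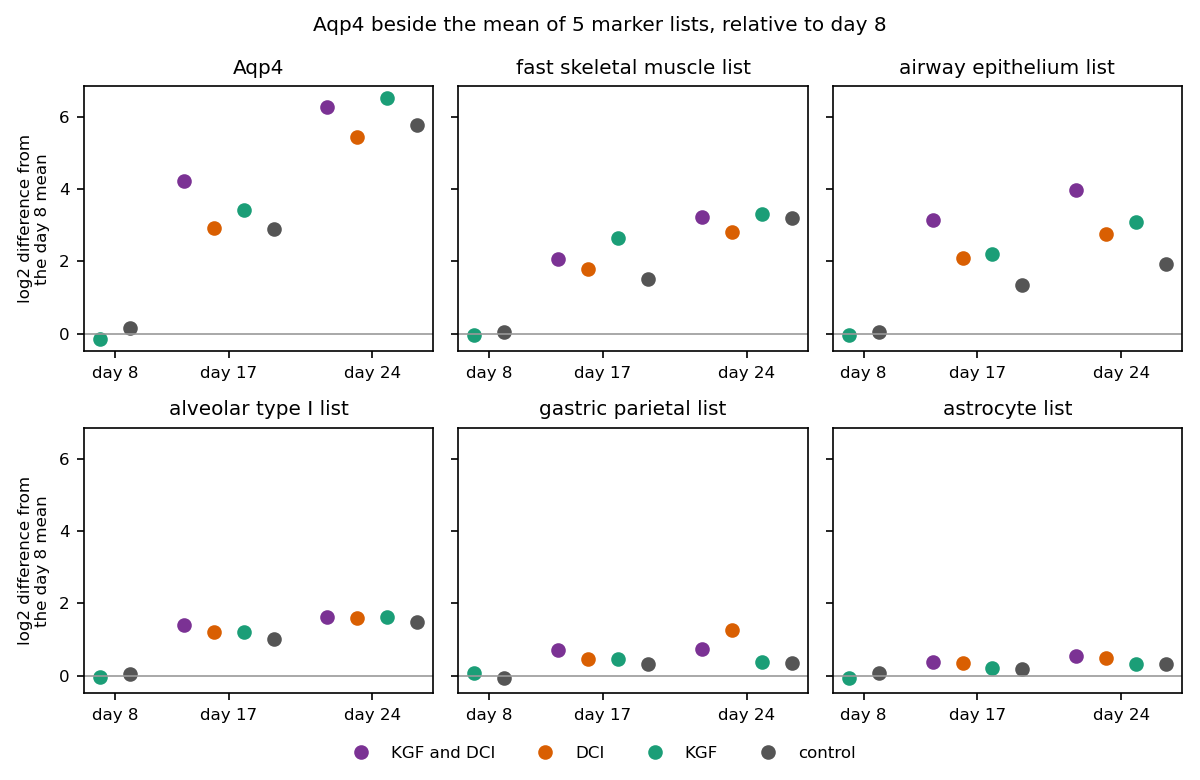
Log2 difference of Aqp4, and of the mean of 5 marker lists, from their own mean over the 2 day 8 arrays, on each of the 10 arrays by day and treatment. Aqp4 lay 5.44 to 6.52 above day 8 at day 24, the fast skeletal muscle mean 2.82 to 3.32, the airway mean 1.92 to 3.97 and the astrocyte mean 0.31 to 0.55.

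The genes whose log2 values ran most like Aqp4 over the 10 arrays were taken from 5708 that ranged by at least 1 and reached the median level. The leading 10 were Ltf (r = 0.993), F3 (r = 0.991), Entpd3 (r = 0.989), Creld1, Fos, Sftpd (r = 0.987), Ndufa4l2, Macrod1, Junb and Lcn2 (r = 0.985). Ltf and Lcn2 encode the secreted iron-binding proteins lactoferrin and lipocalin, Sftpd encodes surfactant protein D, and Fos and Junb are immediate early genes. These are correlations across 10 arrays that share their days, so any gene that climbs on both steps scores high. Over the 8 arrays of days 17 and 24 alone, 4 of the 10 were again among the leading 10: Sftpd (r = 0.995), Ltf, Entpd3 and F3.

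Fabp7, the brain lipid-binding protein of radial glia, rose steeply and then declined. It read 4.54 with KGF and 4.95 in the control at day 8. At day 17 it read 8.83 with KGF and DCI, 8.27 with DCI, 8.44 with KGF and 8.62 in the control. The day 24 values were 6.92 with KGF and DCI, 7.35 with DCI, 7.74 with KGF and 7.90 in the control. All day 17 arrays were above all day 24 arrays, and these were above both day 8 arrays. Among all genes 18.8% read lower on every day 24 array than on every day 17 array, and 26.5% higher on every day 17 array than on both day 8 arrays. Fabp7 did both. In the additive limma fit it was higher at day 17 than at day 8 by 3.96 ± 0.24, or 15.6-fold (adjusted p = 3.02e-07). It was lower at day 24 than at day 17 by 2.09-fold (log2 difference -1.06 ± 0.18, adjusted p = 0.00103), in 4 of 4 pairs. The single probe set of Fabp7 leaves no second reading, and its day 8 value with KGF was below 4.72, so that the step of 15.6-fold may be a lower bound.

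At day 24 both Fabp7 values with DCI were below both without it, as for 28.7% of genes. The DCI differences were -0.82 in cultures with KGF and -0.55 in cultures without it at day 24, and 0.38 and -0.35 at day 17. In the fit with a DCI by day term, the DCI difference was -0.68 ± 0.19 at day 24 (adjusted p = 0.0282), and 0.01 ± 0.19 at day 17 (adjusted p = 0.979). The test of the change itself gave -0.70 ± 0.26 and did not pass (adjusted p = 0.226), so that the 2 days are not shown to differ. The day 24 call was lost under 3 of 6 other settings, with adjusted p = 0.0910 without a mean trend in the variance, 0.0877 with a robust variance and 0.0578 where probe sets were averaged. The additive DCI difference was -0.33 ± 0.18 (adjusted p = 0.264). It was -0.58 ± 0.11 (adjusted p = 0.00603) without the day 17 array with KGF and DCI.

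The gene that ran most like Fabp7 over the 10 arrays was Dcx, which encodes doublecortin of young neurons (r = 0.991), followed by Cbx6, Aldh1a2, Tmem41a and Flrt1 (r = 0.982). None of these 5 was among the leading 5 over the 8 arrays of days 17 and 24. The neuron list, to which Dcx belongs, moved with Fabp7 on the first step. Of 17 neuronal genes 13 were higher and none lower at day 17 than at day 8, with a median difference of 1.41, and 5 were lower and 3 higher at day 24 than at day 17. Its mean was 4.96 to 5.01 at day 8, 6.22 to 6.58 at day 17 and 5.88 to 6.55 at day 24. Over all genes 21.4% were higher and 21% lower on the first step, and 14.8% and 22.5% on the second. Of 15 radial glia and neural progenitor genes, 7 were higher and 2 lower on the first step, led by Ptprz1, a receptor phosphatase (3.54 ± 0.23), Emx2, a forebrain homeobox gene (1.35 ± 0.18), Gli3, a hedgehog effector (-1.24 ± 0.12), and Sox21 (1.13 ± 0.20). With DCI 4 of the 15 were lower, Ptprz1 (-1.04 ± 0.17), Otx2 (-0.60 ± 0.16), Tnc (-0.59 ± 0.14) and the intermediate filament nestin, Nes (-0.57 ± 0.09), and none higher. Over all genes 8.09% were lower with DCI and 7.27% higher. The part of neural cells in the Fabp7 values was not tested.

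Fabp7 was not alone in its family of fatty acid-binding proteins. Of 8 measured, 6 were higher at day 17 than at day 8, with a median difference of 2.31, and none lower. The widest steps were those of Fabp4 of adipocytes and macrophages (8.12 ± 0.08), Fabp1 of liver and gut (7.28 ± 0.44), Fabp7 itself and Fabp2 of gut (2.53 ± 0.54). Between days 17 and 24 Fabp1 (-1.70 ± 0.34), Fabp2 (-1.53 ± 0.41) and Fabp7 were lower, and Fabp4 was higher (0.79 ± 0.06). With DCI at day 24, Fabp2 (-1.60 ± 0.37), Fabp1 (-1.31 ± 0.17), Fabp3 (-1.10 ± 0.16) and Fabp7 were lower and Fabp4 was higher (0.54 ± 0.07). Over all genes 21.4% were higher and 21% lower at day 17 than at day 8. Those shares were 14.8% and 22.5% at day 24 against day 17, and 7.99% and 11.4% with DCI at day 24.

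Slc1a3 is the glutamate and aspartate transporter of astrocytes and radial glia. It alone of the 8 genes passed as lower at day 17 than at day 8 in the additive fit. It read 8.09 with KGF and 8.34 in the control at day 8. Day 17 values were 6.84 with KGF and DCI, 7.003 with DCI, 6.49 with KGF and 6.89 in the control. Day 24 values were 7.03 with KGF and DCI, 7.13 with DCI, 6.55 with KGF and 6.76 in the control. Both day 8 arrays were above all others, as for 29.4% of genes when set against day 17, and days 17 and 24 overlapped. The difference between days 17 and 8 was -1.57 ± 0.11, a 2.98-fold lower value (adjusted p = 1.13e-06), and 5 of 6 probe sets passed in that direction, with differences of -1.84 to -0.61. Between days 24 and 17 it was 0.06 ± 0.08 (adjusted p = 0.581).

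DCI went with higher Slc1a3 in 4 of 4 pairs, by 0.35 and 0.11 at day 17 and by 0.48 and 0.37 at day 24, with and without KGF. The additive difference was 0.33 ± 0.08, or 1.26-fold (adjusted p = 0.0244). In the fit with a DCI by day term it was 0.42 ± 0.12 at day 24 (adjusted p = 0.0304), and 0.23 ± 0.12 at day 17, where it did not pass (adjusted p = 0.301). Of the 6 probe sets 3 passed as higher in the additive fit, over a span of -0.10 to 0.58, and at day 17 alone 1 passed as higher and 1 as lower. The additive call was lost with the mean of the probe sets (0.27, adjusted p = 0.153), and without any 1 of 6 arrays: KGF and DCI or KGF at day 17, and each of the 4 at day 24 (adjusted p = 0.0592 to 0.0992). KGF differences ran the other way, lower in 5 of 5 pairs (-0.23 ± 0.08, adjusted p = 0.450), and did not pass.

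Among the 7 glutamate and neutral amino acid transporters of its family, Slc1a3 was joined with DCI by Slc1a5 (0.67 ± 0.11, adjusted p = 0.00244) and Slc1a4 (0.53 ± 0.12, adjusted p = 0.0166), both neutral amino acid carriers, and none was lower. The median DCI difference of the 7 was 0.33, against -0.01 over all genes. At day 17 against day 8, 3 were lower, Slc1a3, Slc1a6 (-0.52 ± 0.14) and Slc1a4 (-0.47 ± 0.16), and Slc1a1 was higher (0.74 ± 0.19). Over all genes 21% were lower and 21.4% higher on that step, and with DCI 7.27% were higher and 8.09% lower. Slc1a2, the main glutamate transporter of mature astrocytes, named after its values were seen, read 3.95 to 4.77 over all arrays. The genes that ran most like Slc1a3 over the 10 arrays were Tiparp (r = 0.981), Gfi1b, Foxf1, Rdh11 and Igsf11 (r = 0.972), and none of them was among the leading 5 over the 8 arrays of days 17 and 24.

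S100b, a calcium-binding protein of astrocytes and Schwann cells that is also made by fat and cartilage cells, moved by small steps. It read 4.74 with KGF and 4.86 in the control at day 8. At day 17, S100b read 5.22 with KGF and DCI, 5.48 with DCI, 4.96 with KGF and 5.10 in the control. At day 24, S100b read 5.71 with KGF and DCI, 5.70 with DCI, 5.21 with KGF and 5.53 in the control. Both arrays with DCI were above both without it at day 17, as for 24.8% of genes, and at day 24, as for 25%. The DCI difference was 0.33 ± 0.10, or 1.26-fold (95% interval 0.11 to 0.55, adjusted p = 0.0471), in 4 of 4 pairs. That call did not survive the loss of any 1 of the 10 arrays (adjusted p = 0.0573 to 0.142), while the difference stayed between 0.29 and 0.37. The main probe set thus began close to the 4.72 of the olfactory receptors. The other S100b probe set read 2.82 to 4.42, below 4.72 on every array, and gave 0.32 with DCI, which did not pass.

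Between days 24 and 17 S100b was higher by 0.35 ± 0.10 (adjusted p = 0.0190), in 4 of 4 pairs. This call was lost without the day 17 array with KGF and DCI (adjusted p = 0.0690), the day 24 array with KGF and DCI (0.0619) or the day 24 control (0.0700). Between days 17 and 8 the main probe set differed by 0.22 ± 0.13 (adjusted p = 0.204), and by -0.09 after a second quantile normalisation, where it did not pass either. The mean of both probe sets differed by 0.48 and passed (adjusted p = 0.00977), though the second probe set stayed below 4.72 on every array. Asb11, Deptor, Degs2, Sra1 and Fgl1 ran most like S100b over the 10 arrays (r = 0.962 to 0.972). In lists of other cells that make S100b, 2 of 6 adipocyte genes were higher with DCI and none lower, and none of 9 cartilage genes passed. Over all genes 7.27% were higher with DCI and 8.09% lower. The part of fat and cartilage cells in the S100b values was not tested.

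Mbp, myelin basic protein, rose between days 8 and 17. It read 6.79 with KGF and 7.07 in the control at day 8. Its day 17 values were 8.40 with KGF and DCI, 8.43 with DCI, 8.29 with KGF and 8.45 in the control. Its day 24 values were 8.11 with KGF and DCI, 8.22 with DCI, 8.68 with KGF and 8.53 in the control. Both day 8 arrays were below all others, as for 26.5% of genes when set against day 17, and days 17 and 24 overlapped. The difference between days 17 and 8 was 1.56 ± 0.14, or 2.95-fold (adjusted p = 7.21e-06), and 7 of 8 probe sets passed as higher, over a span of 0.04 to 2.39. Between days 24 and 17 it was -0.01 ± 0.11 (adjusted p = 0.968). As background, the Mbp locus also gives golli transcripts outside myelinating cells, and which transcripts each of the 8 probe sets reads was not determined here.

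At day 24 both arrays with DCI were below both without it for Mbp, as for Fabp7 and for 28.7% of genes. At day 17 they were not, and 25.4% of genes did so on that day. The DCI difference was -0.44 ± 0.09 at day 24 (adjusted p = 0.00827), a 1.35-fold lower value, and 0.04 ± 0.09 at day 17 (adjusted p = 0.875). It passed at day 24 under all 6 other fitted settings run. Fitted one by one, 5 of 8 probe sets passed as lower at day 24, over a span of -1.33 to 0.09. The probe set with the widest span read 5.08 with KGF and DCI and 5.30 with DCI at day 24, against 6.18 with KGF and 6.85 in the control. The change of the DCI difference between the days was -0.48 ± 0.13 and did not pass (adjusted p = 0.101). The additive DCI difference of the main probe set was -0.20 ± 0.11 (adjusted p = 0.272), and that of the mean of the 8 probe sets was -0.39 (adjusted p = 0.0219).

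**Figure D4:**
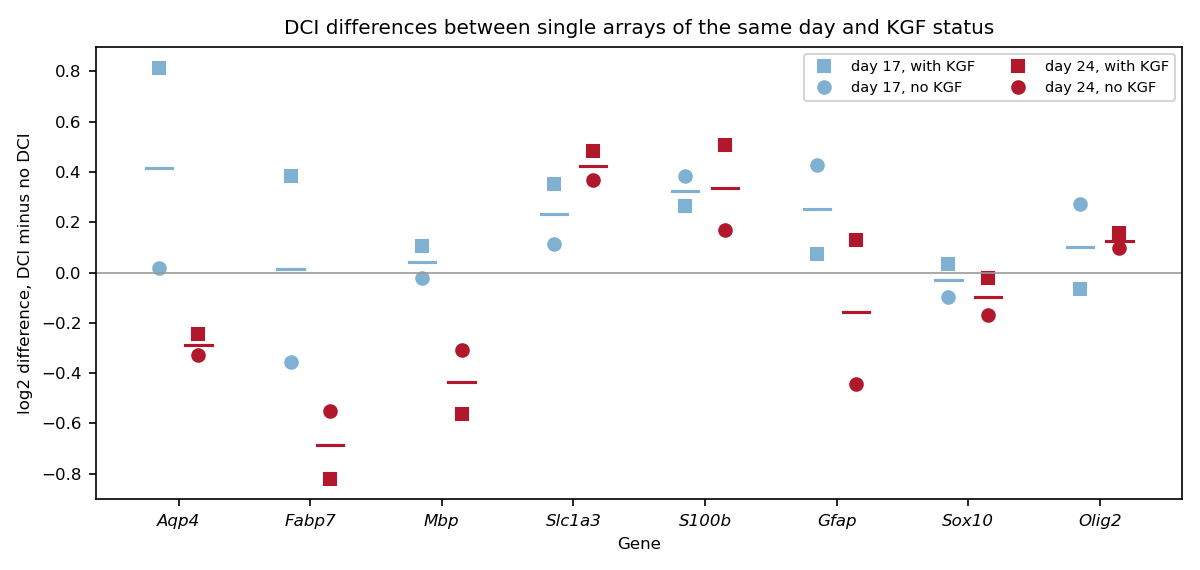
Log2 difference between the array with DCI and the array without it, for pairs of the same day and KGF status, with 2 pairs per day and a bar at their mean. At day 24 both pairs of Fabp7 and Mbp lay below 0, at -0.82 and -0.55 and at -0.56 and -0.31, and all 4 pairs of Slc1a3 and of S100b lay above 0.

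Other genes of the myelinating lineages gave a mixed picture. Of 17 measured oligodendrocyte lineage genes 3 were higher and 3 lower at day 17 than at day 8, with a median difference of -0.02, the same as over all genes. Over all genes 21.4% were higher and 21% lower. Ugt8a, which makes the galactolipids of myelin, was higher (2.57 ± 0.16), as was Aspa, aspartoacylase (1.45 ± 0.30), and Sox8 (-1.44 ± 0.22) and Myrf (-0.92 ± 0.11) were lower. With DCI at day 24, where Mbp was lower, 4 of the 17 were higher and none lower, led by Fa2h, the fatty acid 2-hydroxylase (1.04 ± 0.14), Aspa (0.90 ± 0.20) and Ugt8a (0.68 ± 0.17). Of 12 measured Schwann cell and neural crest genes, 3 were lower with DCI at day 24 and none higher, Ednrb, the endothelin receptor (-1.40 ± 0.11), Egr2 (-1.08 ± 0.26) and Pmp22 (-0.37 ± 0.07). Egr2 is also an immediate early gene in many cells. With DCI at day 24, 7.99% of all genes were higher and 11.4% lower. The genes most like Mbp over the 10 arrays were Akr1c14 (r = 0.992), Fam110c, Dbndd2, Ccdc122 and Ccdc149 (r = 0.989), and none was among the leading 5 over the 8 later arrays.

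Sox10, Olig2 and Gfap passed the test in none of the contrasts described above. Sox10 passed as lower at day 17 than at day 8 in 1 other setting, a second quantile normalisation of the deposited values (-0.36, adjusted p = 0.0266). Sox10, a transcription factor of neural crest, Schwann cells and oligodendrocytes, read 6.03 to 6.31 over all 10 arrays (median range of all genes 0.77, of olfactory receptors 0.51), and its differences were all within 0.07 in the additive fit. A range of 0.27 was narrower than that of all 44 olfactory receptor probe sets. Olig2, a basic helix-loop-helix factor of oligodendrocytes and motor neurons, read 2.30 to 2.60, under which at most 6.69% of probe sets lay on any array. Gfap, the intermediate filament of mature astrocytes, read 4.32 to 5.21, and its highest value was the day 24 control. Its difference between days 24 and 17 was 0.28 ± 0.14 (95% interval -0.04 to 0.60, adjusted p = 0.150), and the other 2 Gfap probe sets did not pass either. The 95% intervals of the DCI differences were -0.27 to 0.36 for Gfap, -0.27 to 0.14 for Sox10 and -0.06 to 0.29 for Olig2. The best likeness any gene showed to Gfap, Sox10 or Olig2 over the 10 arrays was 0.81, 0.80 and 0.84, where the leading genes of the other 5 were at 0.97 or more. Of 8 melanocyte genes, another Sox10 lineage, 1 was higher and 2 lower with DCI, where 7.27% and 8.09% of all genes were.

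**Figure D5:**
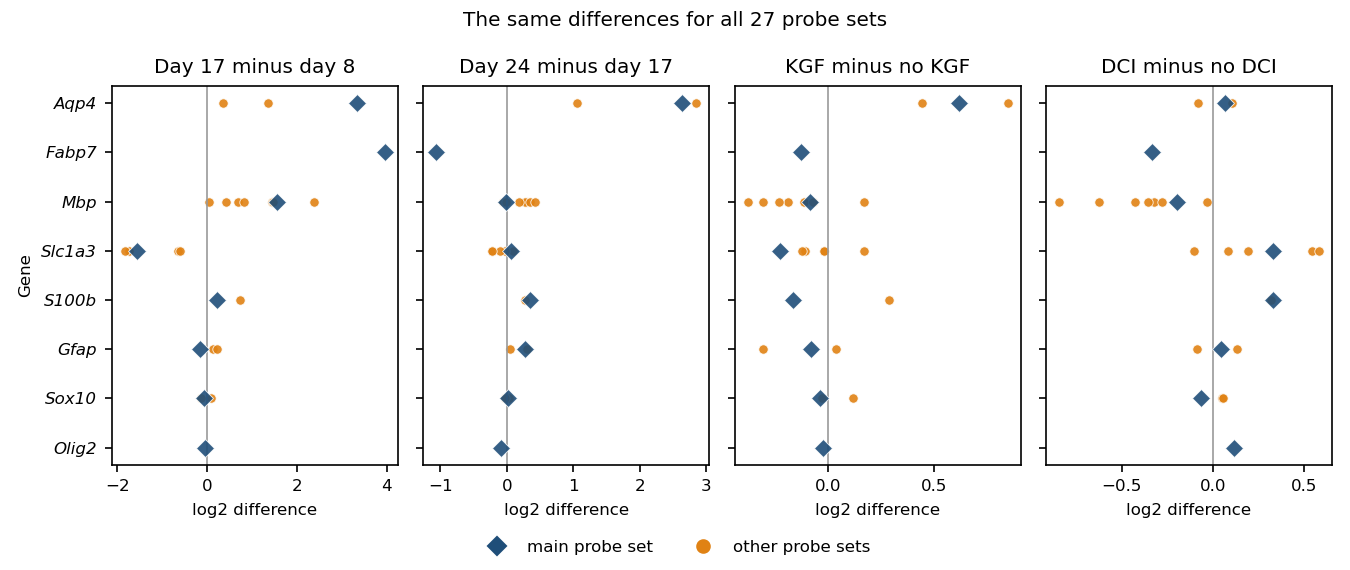
The same log2 differences for all 27 probe sets of the 8 genes, each fitted by itself, with main probe sets as diamonds and others as circles. Aqp4 probe sets ran from 0.36 to 3.33 for day 17 minus day 8, Mbp probe sets from -0.85 to -0.04 with DCI, and Slc1a3 probe sets from -0.10 to 0.58 with DCI.

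The 8 genes did not move as one group. Over the 10 arrays Mbp and Fabp7 ran together (r = 0.93) and both ran opposite to Slc1a3 (r = -0.94 and -0.91), while Aqp4 and Fabp7 were at r = 0.60. Over the 8 arrays of days 17 and 24 alone, r was 0.40 for Mbp and Fabp7, -0.54 for Mbp and Slc1a3, -0.38 for Fabp7 and Slc1a3 and -0.77 for Aqp4 and Fabp7. All these values come from the same arrays. Genes known to promote astrocyte formation moved on the same step. Of 15 measured gliogenic signalling genes 10 were higher and 2 lower at day 17 than at day 8, with a median difference of 1.00. They were led by the nuclear factor I genes Nfix (4.62 ± 0.12), Nfib (2.24 ± 0.12) and Nfia (1.54 ± 0.10), and by Stat3 (1.29 ± 0.10), all of which act in many tissues besides the nervous system. Over all genes 21.4% were higher and 21% lower on that step. With DCI 3 of the 15 were lower, Bmp4 (-0.69 ± 0.08), Id3 (-0.39 ± 0.06) and Notch1 (-0.28 ± 0.08), and none higher. Over all genes 8.09% were lower with DCI and 7.27% higher. Of the 16 astrocyte genes 4 were higher with DCI and none lower, Cbs (1.22 ± 0.11), Aldh1l1 (0.59 ± 0.09), Sox9 (0.49 ± 0.10) and Gja1 (0.44 ± 0.06), with a median difference of 0.05. Cbs and Gja1 are used by many epithelial and mesenchymal cells, and Sox9 by lung epithelium and cartilage. Macrophage genes moved most with DCI, 12 of 12 lower, their mean at 6.08 to 7.69 with DCI against 9.26 to 9.75 without it at days 17 and 24. Of 8 pluripotency genes none passed with DCI in the additive fit, and 3 were higher at day 24, as were 7.99% of all genes. The part of these cells in the DCI differences of the 8 genes was not tested.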

How the data were processed

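RNA of 10 cultures was purified (RNeasy, DNase) and biotin-labelled by a One-Cycle protocol for Affymetrix arrays, according to the labels. Values of 45101 probe sets on a log2 scale were deposited. The submitters' processing notes name RMA, and the labels name Bioconductor. RMA scales arrays to each other by their probe intensities, before probes are summarised, so a difference is read against the rest of the array, and summarised values need not share 1 distribution. Which RMA version was used, and whether it was run on all arrays jointly, is not given in the sources used here. Names came from the platform annotation: 34945 probe sets had 1 symbol, 932 several, 9160 none, and 64 were controls. The 8 genes and the 19 lists were chosen with earlier results of these data known.

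No further normalisation or filter was applied. A model with day, KGF and DCI was fitted to all 10 arrays with limma 3.58.1 (R 4.3.3; eBayes with a mean trend, 5 residual degrees of freedom), and interactions to the 8 arrays of days 17 and 24 (3 residual degrees of freedom). Genes passed at a Benjamini-Hochberg adjusted p under 0.05, adjusted over 18193 genes. The number of arrays limits the precision, with a median standard error of 0.10 for DCI and 0.18 for DCI by day. In simulated data, a DCI change of 1 was recovered for 94% of 200 changed genes among 18193, and one of 0.5 for 39.5%. A change of 1 was recovered for 16% in DCI by day, 8% in KGF by day and 4% in KGF by DCI. In the arrays 2793 genes passed for DCI, many more than were changed in the simulation. The adjusted p depends on that share, so these rates may not hold for the arrays. Named genes were the 8 members, up to 4 genes per list with the largest differences, and the 5 (Aqp4: 10) most correlated genes. Alternatives were other variance priors, a filter on low genes, the mean of probe sets, single probe sets, a second quantile normalisation of the gene values, subsets of arrays, an adjusted p under 0.10 and leaving out each array. Promoters came from RefSeq (GRCm38.p6), matched by symbol. Figures used matplotlib 3.10.9.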

Additional observations from a re-analysis of the deposited data

Results flagged for a closer look

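Aqp4 was flagged because its DCI differences had opposite signs on the 2 days. How many of all genes share this sign pattern was not counted. The difference with DCI was -0.29 at day 24 (mean of 2 pairs, -0.25 and -0.33) and 0.42 at day 17 (mean of 2 pairs, 0.81 and 0.02). Apart from the 0.81, these pair differences were smaller than the residual standard deviation of 0.44. The change between the days was tested as the DCI by day term and did not pass (-0.70 ± 0.23 SE, adjusted p = 0.166 in limma).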

How the results depend on the processing

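No difference of the 8 genes that passed in the fits reported above, or in an alternative, had the opposite sign in the other. Signs were not compared where neither passed. The count of the 8 that passed for DCI was 2, and it was 1 with the lowest 40% of genes left out (a filter that removes S100b, Gfap and Olig2), 1 with every probe set fitted by itself and 1 on the 8 arrays of days 17 and 24. With each array left out in turn the count was 0 to 1. The second quantile normalisation, run on the values of the 18193 genes, moved the median of all genes between days 17 and 8 from -0.02 to -0.12, and there Sox10 passed as lower (-0.36, adjusted p = 0.0266) and the S100b difference was -0.09, against 0.22 as deposited, neither past the threshold. The mean of the S100b probe sets gave 0.48 and passed, so that the sign of this S100b step depended on the setting. Over all genes, KGF changed 1 gene in the 10-array fit and 65 on the 8 later arrays or without either day 8 array. DCI changed 2793 and 1638 without the day 24 control. DCI by day changed 456 genes, 138 without a variance trend and 223 with the mean of probe sets. The causes were not tested. No paired analysis was possible by replicate number because each condition has 1 array and the labels give no replicate numbers. Arrays matched by day and the other treatment were compared singly and through the additive fit, which holds both as terms, and a fit with the matched pair as a block was not run. Values near background limit what the arrays can show for Olig2, Gfap, S100b and the day 8 levels of Aqp4 and Fabp7.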
